A study of Homo sapiens with 6 samples.

Results

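Of the 1826 guide RNAs against genes in the paired-guide library, 39 target 10 genes whose products cut or dissolve joined DNA molecules, and these are described here. They were taken by name as the guides of Slx, Eme, Mus81, Gen1, Ankle1, Blm, Rmi and Top3 symbols, and the last of these prefixes matched no guide. The 28 guides of 7 genes (Mus81, Eme1, Eme2, Slx4, Slx1b, Gen1 and Ankle1) belong to structure-specific nucleases and their scaffold, and the 11 guides of 3 genes (Blm, Rmi1 and Rmi2) to the BLM dissolution complex. Each gene has 4 guides, of which guides 1 and 2 sit at position 1 of the construct and guides 3 and 4 at position 2, except Blm, of which guides 1, 3 and 4 were listed. All 39 passed the filter of a mean count of at least 2000. A guide of the set was present in 35874 of the 863546 constructs with reads, against 910 to 937 different partners per guide.

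The cells were eHAP iCas9-cl#6, a clone of a human line that is p53 null and makes Cas9 when doxycycline is present, so all groups share the loss of p53 and rest on 1 clone. The irradiated and day 14 cells were given doxycycline for 7 days, and for day 0 cells the labels give no duration. In the irradiated group, cells were given 0.6 Gy of X-rays 24 hours after each split and were collected at day 15, after 10 population doublings. Day 14 cells grew without irradiation for 12 doublings, and day 0 cells were collected without irradiation at the start. Each group has 2 libraries, made by PCR of the guide locus from genomic DNA, and nothing in the labels says that they came from separate cultures, so p-values measure the spread between these libraries only.

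Holliday junctions and related branched structures link DNA molecules during recombination and at stalled forks, and have to be removed before chromosomes separate. In the dissolution route the BLM helicase, with topoisomerase III alpha and the RMI1 and RMI2 proteins, moves the junctions together and unlinks them without crossover. In the resolution route nucleases cut the junction: MUS81 with EME1 or EME2, SLX1 held on the SLX4 scaffold, and GEN1, which acts late in the cell cycle. In human cells the routes back each other up, and loss of BLM is the cause of Bloom syndrome, known for raised sister chromatid exchange.

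The tables give guides under mouse-style names, and the human genes of the set lie as follows in GRCh38. For the nucleases, RefSeq places MUS81 on chromosome 11 from 65859674 to 65867653, EME1 on chromosome 17 from 50373229 to 50381483, EME2 on chromosome 16 from 1772810 to 1781702 and GEN1 on chromosome 2 from 17753278 to 17788946. It also places SLX4 on chromosome 16 from 3581181 to 3611606, SLX1B on chromosome 16 from 29454533 to 29458220 and ANKLE1 on chromosome 19 from 17281901 to 17287646. For the dissolution complex it places BLM on chromosome 15 from 90717346 to 90816166, RMI1 on chromosome 9 from 83980359 to 84004074 and RMI2 on chromosome 16 from 11345459 to 11351760. SLX1B has a near-identical copy, SLX1A, on the same chromosome, so guides named Slx1b may cut both genes. Guide sequences and the exons they cut were not used here.

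Levels are in RPM, reads per 1000000, of all reads at the guide's position for a guide and of the sum over all genes for a gene, scaled by TMM, the edgeR scaling that sets the bulk of guides equal across libraries. A change is a log2 ratio between groups. Libraries held 61185707 to 86587125 reads, and each guide of the set except Rmi1 guide 4 was read 19365 to 261965 times per library. In 2 libraries many constructs were missing altogether: of the 342 constructs that join guides of different genes of the set, 171 had no reads in irradiated replicate 2 and 184 in day 14 replicate 1, whereas the other libraries lacked 1 to 11. The 138 constructs missing from both are 80.7% of the first number and 75.0% of the second. A further library stands apart at position 2 only. In day 0 replicate 1, 264 of the 927 position 2 guides tested lay more than 0.4 log2 units below their level in day 0 replicate 2, with none between -0.4 and -0.3, whereas 2 of 922 position 1 guides did. The 4 position 2 guides of Eme1 and Eme2 are among the 264, at -0.71 to -0.73, while those of Gen1, Mus81, Blm and Slx4 stood 0.13 to 0.38 higher in that library than in replicate 2. Values against day 0 are therefore also given with day 0 replicate 2 as the only baseline where the 2 differ.

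No guide or gene of the set passed the test in any comparison. edgeR's quasi-likelihood test, adjusted over all 1849 guides with Benjamini-Hochberg, called 0 guides (0%) in each comparison, and over all 459 genes it called 0 (0%). Below an unadjusted p of 0.05 lay 0 of the 39 guides in irradiated cells against day 0 (57 or 3.08% of all), 4 against day 14 (83 or 4.49% of all), and 1 at day 14 against day 0 (79 or 4.27% of all). For genes the counts were 0 of 10 (18 or 3.92% of all), 1 of 10 (12 or 2.61%) and 0 of 10 (18 or 3.92%) in the same order. DESeq2, run on the same counts, called 27 guides (1.46%), 25 (1.35%) and 24 (1.30%), of which 0, 1 and 0 belong to the set, and 2 genes (0.436%), 1 (0.218%) and 2 (0.436%), of which 0 belong to it. The 95% intervals of the 10 gene changes lay within -0.31 and 0.42 in all 3 comparisons, around a median half-width of 0.12. A single library decides the calls against day 0. With day 0 replicate 1 as the only baseline edgeR called 5 guides of the set (Eme1 guides 3 and 4, Eme2 guides 3 and 4 and Slx4 guide 4) and 3 genes (Eme1, Eme2 and Slx4) in irradiated and in day 14 cells. Over all 1849 guides that baseline gave 311 or 16.8% in irradiated cells and 313 or 16.9% at day 14, and over all 459 genes 163 or 35.5% and 168 or 36.6%, so the set's shares do not lie above those of all features. With day 0 replicate 2 as the only baseline it called 0 guides and genes of the set.

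Mus81 is the catalytic subunit that cuts nicked junctions and forks, and its constructs were the most abundant of the 10 genes in every library. Mus81 constructs stood at 3245 and 3116 RPM in the irradiated libraries, 3118 and 3315 at day 14 and 3379.9 and 3227 at day 0. The groups overlap, with the highest value in a day 0 library. Changes were -0.05 in irradiated cells against day 0 (95% interval -0.18 to 0.07), -0.02 against day 14 and -0.04 at day 14 against day 0 (adjusted p of 0.648, 0.996 and 0.701, edgeR). Its guides ran from -0.15 (guide 4) to 0.10 (guide 2) in irradiated cells against day 0, and from -0.17 to 0.12 for the same guides at day 14. Against day 0 replicate 2 alone, guide 4 stood at -0.02 and -0.05 and the gene at -0.02 and 0.00.

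Eme1 and Eme2 are the alternative partners that MUS81 needs for activity. Eme1 constructs stood at 1600.4 and 1601 RPM in the irradiated libraries, 1647 and 1582 at day 14 and 1350.0 and 1577 at day 0. Eme2 constructs stood at 1531 and 1551 RPM in the irradiated libraries, 1649.8 and 1629 at day 14 and 1296 and 1562 at day 0. For both genes the day 0 replicate 1 value is the lowest of the 6, and the day 0 replicate 2 value lies near those of the later groups. Eme1 was at 0.13 in irradiated cells against day 0 (95% interval -0.07 to 0.33) and at 0.14 at day 14 (95% interval -0.06 to 0.34), and 0.02 and 0.04 without day 0 replicate 1. Eme2 was at 0.11 in irradiated cells and at 0.20 at day 14 (95% interval -0.03 to 0.42), the largest gene value of the set, and -0.02 and 0.07 without that library. Irradiated against day 14, where day 0 plays no part, Eme1 was at -0.01 and Eme2 at -0.09.

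The position 2 guides of these partners show the day 0 difference directly. Eme1 guide 4 had 708 and 746 RPM in the irradiated libraries, 715 and 719.5 at day 14 and 431 and 704 at day 0, and Eme2 guide 4 had 637 and 668 RPM in the irradiated libraries, 679 and 676 at day 14 and 389.9 and 642 at day 0. In each of them 5 libraries lie close together and day 0 replicate 1 lies apart, well below. Their changes against both day 0 libraries, 0.36 and 0.34 in irradiated cells and 0.34 and 0.39 at day 14, became 0.05 and 0.02, and 0.02 and 0.07, against day 0 replicate 2 alone.

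At position 1 the guides of Eme1 lay on opposite sides of 0 at day 14. Eme1 guide 1 had 1533 and 1472 RPM in the irradiated libraries, 1759 and 1543 at day 14 and 1489 and 1481 at day 0. Eme1 guide 2 had 518 and 557 RPM in the irradiated libraries, 426 and 466 at day 14 and 524 and 528 at day 0. For guide 1 both day 14 libraries lie above all others, and for guide 2 both lie below all others. Day 14 against day 0, guide 1 was at 0.15 (95% interval -0.03 to 0.34) and guide 2 at -0.24 (95% interval -0.45 to -0.03), and irradiated against day 14 they were at -0.14 and 0.27. Without the incomplete day 14 replicate 1, guide 1 was at 0.06 and -0.04 in these comparisons, and guide 2 at -0.17 and 0.20. Guide 2 is the lowest guide of the whole set at day 14. Neither passed, with an adjusted p of 0.646 for guide 2 at day 14 and 1.00 in irradiated against day 14 cells (edgeR). Both position 1 guides of Eme2 were lower in irradiated than in day 14 cells, at -0.15 for guide 1 and -0.15 for guide 2. Eme2 guide 2 had 758 and 749 RPM in the irradiated libraries, 841 and 829 at day 14 and 795 and 803 at day 0, with both irradiated libraries below all others.

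Slx4 is the scaffold that holds SLX1, MUS81-EME1 and the ERCC4 nuclease together. Its constructs stood at 2516 and 2518 RPM in the irradiated libraries, 2453 and 2531 at day 14 and 2832 and 2547 at day 0. Day 0 replicate 1 is the highest library, and the remaining 5 lie within a narrow band. Changes were -0.10 in irradiated cells against day 0 (95% interval -0.24 to 0.05), 0.01 against day 14 and -0.11 at day 14 against day 0 (adjusted p of 0.623, 0.996 and 0.549, edgeR). Without day 0 replicate 1 the changes against day 0 were -0.02 and -0.03. Its guides lay between -0.12 (guide 4) and -0.04 (guide 3) at day 14, and between -0.13 (guide 4) and 0.02 (guide 1) in irradiated cells. Irradiated against day 14 they ran from -0.02 (guide 3) to 0.08 (guide 1).

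Slx1b encodes the nuclease subunit that cuts junctions only when bound to SLX4. Constructs with Slx1b guides stood at 1294 and 1246 RPM in the irradiated libraries, 1368 and 1336 at day 14 and 1334 and 1292 at day 0. Both irradiated libraries lie below both day 14 libraries. The change was -0.09 in irradiated against day 14 cells (95% interval -0.22 to 0.04), with 4 of 4 guides lower, from -0.13 (guide 2) to -0.06 (guide 3). Eme2 and Ankle1 also had 4 of 4 guides lower there, and the share of all genes with this was not counted. Without both incomplete libraries Slx1b was at -0.05. Against day 0 it was -0.05 in irradiated cells and 0.04 at day 14, with 0 of 4 and 4 of 4 guides higher. None of these passed (adjusted p of 0.996, 0.685 and 0.697, edgeR).

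Gen1 is a resolvase that cuts Holliday junctions symmetrically, without a scaffold. Gen1 constructs had 2641 and 2588 RPM in the irradiated libraries, 2688 and 2612 at day 14 and 2773 and 2599.6 at day 0, and the groups overlap. The changes of Gen1 were -0.04 in irradiated cells against day 0, -0.02 against day 14 and -0.02 at day 14 against day 0, with 95% intervals of -0.15 to 0.08, -0.13 to 0.10 and -0.14 to 0.10. Against day 0 replicate 2 alone the gene was at 0.01 in irradiated cells and 0.03 at day 14, on the other side of 0. Guide 2 was the lowest at -0.10 in irradiated cells and -0.12 at day 14, and guide 1 the highest at 0.00 and 0.08. Guide 4, at -0.06 and -0.09 with both day 0 libraries, was at 0.14 and 0.11 against that library alone, and guide 3, at -0.08 and -0.08, was then at 0.05 and 0.05.

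Ankle1 is a nuclease with ankyrin repeats and a LEM domain whose counterpart in Caenorhabditis elegans acts on DNA bridges between dividing cells. Its constructs stood at 2886 and 2805 RPM in the irradiated libraries, 3009.8 and 3087 at day 14 and 2848 and 2966 at day 0. Both irradiated libraries lie below both day 14 libraries. Irradiated against day 14 the change was -0.10 (95% interval -0.20 to 0.00, adjusted p of 0.996, edgeR) with 4 of 4 guides lower, and against day 0 it was -0.03 in irradiated cells and 0.07 at day 14. Ankle1 guide 2 had 2064 and 1999 RPM in the irradiated libraries, 2326 and 2299 at day 14 and 2167 and 2125 at day 0, so that irradiated libraries are the lowest and day 14 libraries the highest. It was at -0.19 in irradiated against day 14 cells (SE 0.04, 95% interval -0.30 to -0.08), the lowest guide of the set in that comparison. Its adjusted p was 0.686 with edgeR and 0.00373 with DESeq2, the only guide of the set that DESeq2 called. Its lowest and highest adjusted p among 15 alternatives were 0.00373 and 1.00. Guide 1 was at -0.09, guide 3 at -0.03 and guide 4 at -0.02.

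Blm is the helicase of the dissolution complex. Blm constructs had 1345 and 1408 RPM in the irradiated libraries, 1391 and 1323 at day 14 and 1376 and 1289 at day 0. The groups overlap, and the changes were 0.05 in irradiated cells against day 0 (95% interval -0.10 to 0.20), 0.02 against day 14 and 0.03 at day 14 against day 0. Guide 3 gave the largest difference, with 0.08 over day 0 and 0.12 over day 14 for irradiated cells. In the irradiated over day 14 comparison guide 1 was the lowest at -0.02. At day 14 guide 3 was the lowest at -0.04 and guide 1 the highest at 0.06. Against day 0 replicate 2 alone guide 3 was at 0.16 in irradiated cells and 0.04 at day 14, where guide 4 was the highest at 0.11, and the gene was at 0.09 and 0.08.

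Rmi1, the subunit that stimulates decatenation by topoisomerase III alpha, was the gene of the set with the largest value in irradiated against day 14 cells. Its constructs stood at 1432 and 1439 RPM in the irradiated libraries, 1322 and 1313 at day 14 and 1341 and 1383 at day 0. Both irradiated libraries lie above all 4 others, and both day 14 libraries lie below all others. The change was 0.12 (SE 0.05, 95% interval 0.01 to 0.24), with an unadjusted p of 0.0417 and an adjusted p of 0.996 over the 459 genes (edgeR), so it did not pass. Against day 0 the values were 0.08 in irradiated cells (95% interval -0.04 to 0.19) and -0.05 at day 14 (95% interval -0.17 to 0.07). Under the 15 alternatives the irradiated against day 14 value kept its sign, between 0.05 and 0.14. The 0.05 was the value with libraries scaled by non-targeting pairs. That scaling gave lower values for every gene of the set in this comparison, such as -0.09 for Mus81 in place of -0.02.

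All 4 guides of Rmi1 were higher in both irradiated libraries than in both day 14 libraries. Guide 1 had 891 and 879 RPM in the irradiated libraries, 785 and 794 at day 14 and 832 and 869 at day 0, and guide 2 had 971 and 1015 RPM in the irradiated libraries, 946 and 879.9 at day 14 and 950.4 and 937 at day 0. Guide 3 had 876 and 873 RPM in the irradiated libraries, 826 and 847 at day 14 and 820.0 and 853 at day 0, and guide 4 had 38 and 38 RPM in the irradiated libraries, 29.7 and 32 at day 14 and 29 and 29 at day 0. The changes were 0.16, 0.12, 0.06 and 0.29 in the order of the guides, and none passed (adjusted p of 1.00 for each, edgeR). Guide 4 is the rarest guide of the set by far, with 1812 to 3233 reads per library, and its irradiated over day 14 interval ran from -0.20 to 0.78. Over day 0 guide 4 was at 0.36 in irradiated cells, the highest guide of the set there. The guides share reads of no construct with each other except those that join a position 1 and a position 2 guide of Rmi1. They were read in the same libraries, so they are not replicates of the condition.

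Rmi2 is the small partner that stabilises RMI1 in the complex. Its constructs had 2268 and 2274 RPM in the irradiated libraries, 2183 and 2309 at day 14 and 2304 and 2313 at day 0. The groups overlap except that both day 0 libraries lie above both irradiated libraries. The changes were -0.02 in irradiated cells against day 0, 0.02 against day 14 and -0.04 at day 14 against day 0, with 95% intervals of -0.13 to 0.08, -0.09 to 0.12 and -0.15 to 0.07. Guide 1 was the highest in irradiated against day 14 cells at 0.14 and guide 2 the lowest at -0.07. At day 14 against day 0 those guides stood at -0.11 and 0.11, the reverse order. Both comparisons use the same day 14 libraries with opposite sign, so the orders are not separate observations. In irradiated cells over day 0 the Rmi2 guides ran from -0.09 (guide 3) to 0.10 (guide 4).

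By route, the 11 dissolution guides were higher in irradiated cells in 10 cases against day 0 (median 0.06) and in 7 cases against day 14 (median 0.06), and higher at day 14 in 6 cases (median 0.00). The 28 nuclease guides were higher in 10 cases (median -0.03), 9 cases (median -0.02) and 17 cases (median 0.05). Over all 1849 guides 906, 900 and 919 were higher in the same order, and the medians were 0.00 in each comparison. Of the dissolution guides higher in either irradiated comparison, 4 are those of Rmi1. Against day 0 replicate 2 alone, the dissolution and nuclease medians were 0.06 and -0.01 in irradiated cells and 0.04 and 0.05 at day 14. These are counts and medians without a test, guides of 1 gene are not replicates, and the difference between the routes was not tested.

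The number of guides whose groups did not overlap lay near the share over all guides in the irradiated comparisons and above it for guides higher at day 14. Both irradiated libraries lay above both day 0 libraries for 8 of the 39 guides (18.2% of all guides) and below them for 8 (18.3%). Against day 14 they lay above for 7 (15.1%) and below for 7 (15.8%). Day 14 lay above day 0 for 14 (19.5%) and below for 7 (21.5%). Of these 14 guides 10 sit at position 1, where 205 of all 922 guides did so, and the difference was not tested. Of the 7 guides above in irradiated against day 14 cells, 4 are those of Rmi1. For gene sums, single knockouts and gene pairs, the share over all features whose groups did not overlap was not counted. Nor was the share of all genes whose guides all lay on the same side of 0.

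Single knockouts, read from constructs that pair a guide of the gene with a non-targeting guide, rest on 86 constructs for Blm and 119 to 122 for the other genes and give wider intervals. They are expressed as a percentage of the reads of the constructs that carry a pair of non-targeting guides. Of these 878 constructs, 66.6% had no reads in irradiated replicate 2 and 69.7% had none in day 14 replicate 1. Rmi1 alone stood at 12.18 and 14.61 in the irradiated libraries, 9.73 and 11.40 at day 14 and 10.97 and 11.49 at day 0, which puts both irradiated libraries above the others. Its change was 0.34 in irradiated against day 14 cells (95% interval -0.10 to 0.78), 0.25 against day 0 and -0.09 at day 14. Without day 14 replicate 1 the first was 0.23, and without both incomplete libraries 0.10. These constructs are a small part of the Rmi1 sums above.

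For the nucleases alone, Mus81 stood at 26.18 and 26.64 in the irradiated libraries, 32.23 and 27.53 at day 14 and 29.14 and 26.60 at day 0, and Gen1 at 23.63 and 17.23 in the irradiated libraries, 27.65 and 21.58 at day 14 and 22.07 and 21.18 at day 0. Eme1 alone stood at 14.34 and 10.15 in the irradiated libraries, 17.10 and 14.12 at day 14 and 12.47 and 13.16 at day 0. In each of these day 14 replicate 1, an incomplete library, is the highest, and for Mus81 the other day 14 library too lies above both irradiated libraries. For Eme1 both day 14 libraries lie above both day 0 libraries. Irradiated against day 14, Eme1 was at -0.35, Slx1b at -0.29, Eme2 at -0.28, Gen1 at -0.27, Ankle1 at -0.20, Mus81 at -0.18, Rmi2 at -0.09, Slx4 at 0.07 and Blm at 0.21, against a median of -0.08 over all genes. With the 2 incomplete libraries left out Eme1 was at 0.02, Gen1 at 0.13, Rmi2 at 0.04, Blm at -0.14 and Slx4 at -0.04, each on the other side of 0. Slx1b was then at -0.14, Eme2 at -0.19, Ankle1 at -0.08 and Mus81 at -0.07, all nearer to 0. edgeR and DESeq2 each called 0 of 459 single knockouts (0%) in every comparison, and 0 of the 10 had an unadjusted p below 0.05. The unadjusted counts over all genes were 12 (irradiated against day 0), 13 (against day 14) and 18 (day 14 against day 0) with edgeR.

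Constructs with 2 guides of the same gene held few reads. Mus81 had 527 and 721 reads over its 4 constructs in the irradiated libraries, 606 and 397 at day 14 and 960 and 731 at day 0. The 2 listed Blm constructs had 223 and 0 reads in the irradiated libraries, 0 and 90 at day 14 and 130 and 127 at day 0, the zeros falling in the incomplete libraries.

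Pairs of the set ask whether loss of both routes, or of both resolution nucleases, costs cells more than the single losses add up to. The 45 pairs of different genes held 342 constructs, 6 per pair with Blm and 8 otherwise in full, with a median of 446 to 622 reads per pair in the complete libraries. The expected number of reads of a pair is that given by both genes' own levels in a library, and the interaction is the change of the pair beyond the sum of both genes' own changes on the log2 scale. edgeR called 0 of 105111 gene pairs (0%) in each comparison, and 0 of the 45. Over all pairs 372 (irradiated against day 0), 874 (against day 14) and 443 (day 14 against day 0) had an unadjusted p below 0.05, and of the 45 these were 0, 1 and 0. limma-trend called 1 pair (0.000951%), 1 pair (0.000951%) and 0 pairs (0%), none of them of the set. The median 95% half-width of the 45 interactions was 1.61, and the log2 ratio of observed to expected reads had an SD over the 45 pairs of 1.78 in irradiated replicate 2 and 2.25 in day 14 replicate 1, against 0.23 to 0.45 in the other libraries.

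Loss of Mus81 with Gen1 removes the late resolvase and the fork nuclease together. The pair had 864 and 1217 reads in the irradiated libraries, 578 and 827 at day 14 and 1652 and 1183 at day 0, over 8 constructs. This was 0.762 and 0.989 times the expected number in the irradiated libraries, 0.733 and 0.859 at day 14 and 1.029 and 0.887 at day 0. The irradiated ratios overlap those of both other groups. Both day 14 ratios, of which 0.733 comes from an incomplete library, lie below both day 0 ratios. The share of all gene pairs that do so was not counted. The interaction was -0.13 in irradiated cells against day 0 (95% interval -0.92 to 0.66), 0.14 against day 14 (-0.66 to 0.93) and -0.27 at day 14 against day 0 (-1.06 to 0.53). These were -0.33, -0.17 and -0.16 without both incomplete libraries.

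Mus81 with Slx4, which lie in the same route, had 805 and 1099 reads in the irradiated libraries, 643 and 879 at day 14 and 1646 and 1125 at day 0. This was 0.753 and 0.892 times the expected number in the irradiated libraries, 0.837 and 0.931 at day 14 and 0.995 and 0.844 at day 0. The interactions were -0.16, -0.10 and -0.06 for irradiated against day 0, irradiated against day 14 and day 14 against day 0. Gen1 with Slx4 gave -0.17, 0.03 and -0.21 in the same order, and Eme1 with Gen1 0.00, -0.93 and 0.93. Without both incomplete libraries Mus81 with Slx4 gave -0.29, -0.30 and 0.02, Gen1 with Slx4 -0.10, -0.38 and 0.29, and Eme1 with Gen1 0.27, -0.18 and 0.45. Eme1 with Gen1 stood at 2.4 times the expected number in day 14 replicate 1.

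Between the routes, Blm with Mus81 had 690 and 565 reads in the irradiated libraries, 278 and 579 at day 14 and 860 and 721 at day 0, over 6 constructs. This was 1.195 and 0.898 times the expected number in the irradiated libraries, 0.679 and 1.160 at day 14 and 1.085 and 1.074 at day 0. It gave -0.05 in irradiated cells against day 0 (95% interval -1.12 to 1.03), 0.19 against day 14 and -0.23 at day 14. Blm with Gen1 gave -0.47, -0.67 and 0.20, and Blm with Slx4 -0.12, -1.14 and 1.03. Without both incomplete libraries Blm with Mus81 gave 0.15, 0.04 and 0.10, Blm with Gen1 0.23, 0.08 and 0.14, and Blm with Slx4 0.18, 0.49 and -0.30. Blm with Gen1 stood at 0.245 times the expected number in irradiated replicate 2. For Blm with Slx4 the 1134 reads in day 14 replicate 1 were 3.51 times the expected number, beside 334 reads and 0.871 times in replicate 2.

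Within complexes, Eme1 with Mus81 had 691 and 1457 reads in the irradiated libraries, 1752 and 767 at day 14 and 637 and 1046 at day 0. This was 1.039 and 1.957 times the expected number in the irradiated libraries, 3.689 and 1.321 at day 14 and 0.826 and 1.276 at day 0, highest in the incomplete libraries. The interaction was 0.51 in irradiated cells against day 0, -0.74 against day 14 and 1.25 at day 14, and -0.02, -0.35 and 0.33 without those libraries. Eme2 with Mus81 gave 0.01, 0.11 and -0.09, Eme1 with Eme2 0.18, 0.06 and 0.12, and Slx1b with Slx4 0.07, 0.84 and -0.77. In the dissolution complex Blm with Rmi1 gave 0.30, 0.36 and -0.06, Blm with Rmi2 0.33, -0.26 and 0.58, and Rmi1 with Rmi2 0.38, 0.06 and 0.32. All these intervals include 0. With both incomplete libraries left out, Eme2 with Mus81 gave 0.31, 0.05 and 0.25, Eme1 with Eme2 0.39, 0.00 and 0.39, and Slx1b with Slx4 -0.33, -0.34 and 0.01. In the dissolution complex those values were -0.10, 0.12 and -0.22 for Blm with Rmi1, 0.40, 0.80 and -0.40 for Blm with Rmi2 and -0.24, -0.03 and -0.21 for Rmi1 with Rmi2. Most of the named pairs thus had at least 1 value on the other side of 0.

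Rmi1 with Slx1b is the pair of the set whose interval excluded 0 before adjustment. It had 80 and 152 reads in the irradiated libraries, 607 and 221 at day 14 and 324 and 273 at day 0, over 8 constructs. This was 0.332 and 0.697 times the expected number in the irradiated libraries, 3.984 and 1.117 at day 14 and 1.084 and 0.938 at day 0. Both irradiated libraries lie below all others, and day 14 replicate 1 stands far above them, with 64.1% of its reads in 1 construct. The interaction was -2.31 in irradiated against day 14 cells (95% interval -4.48 to -0.14, adjusted p of 1.00, edgeR), -0.97 against day 0 and 1.33 at day 14. Without day 14 replicate 1 the first was -1.12. Without both incomplete libraries, which leaves 1 irradiated and 1 day 14 library, it was -1.75, beside -1.61 against day 0 and 0.14 at day 14. Under the 11 alternatives the irradiated against day 14 value lay between -2.95 and -1.12. That against day 0 lay between -1.61 and -0.54 in irradiated cells and between 0.14 and 1.98 at day 14. No alternative called the pair.

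Of 32 other genes of junction formation, branch migration and flap or crosslink cleavage, among them Ercc1, Ercc4, Wrn and Fancm, 31 were measured and 0 passed in any comparison. Irradiated against day 0, 15 were higher and 16 lower (median 0.00), against day 14 16 were higher and 15 lower (median 0.01), and at day 14 against day 0 12 were higher and 19 lower (median -0.01), beside medians of 0.00, 0.00 and 0.01 over all genes. Wrn, another helicase of the RecQ family to which Blm belongs, was the farthest from 0 of these, at 0.24 in irradiated cells against day 0 and 0.17 in irradiated against day 14 cells. It had 1981 and 2400 RPM in the irradiated libraries, 2023 and 1861 at day 14 and 1717 and 1990 at day 0. The value of irradiated replicate 2, an incomplete library, stands apart. Irradiated replicate 1 lies below day 0 replicate 2, and the change of Wrn against that day 0 library alone is not given. Blm stood at 0.05 in irradiated cells against day 0 and at 0.02 in irradiated against day 14 cells.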

How the data were processed

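Guide pairs were counted in 6 libraries of genomic DNA PCR from human eHAP cells, 2 each of irradiated, day 14 and day 0 cells. The authors deposited raw read counts per guide pair, per the file headers. HISAT2 2.1.0 and hg38 are named in the submitters' processing notes, and their roles, the guide assignment and the filters are not given in the sources used here. 2 columns that match no sample were not used. Reads carry no molecular identifiers, so PCR copies are counted.

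Counts were summed per guide (all partners), per gene, per gene with a non-targeting partner, and per gene pair. edgeR 4.0.16 (R 4.3.3) fitted all 6 libraries in 1 quasi-likelihood model without a replicate block, with 2-sided tests and Benjamini-Hochberg adjustment over all features at 0.05. Guides (scaled by TMM within each position) and genes (TMM) needed a mean count of 2000, and single knockouts (scaled by non-targeting pairs) and gene pairs a mean count of 20. Gene pairs had an offset from an additive fit of both genes' effects (prior count 2, 25 iterations). DESeq2 1.42.0, limma 3.58.1 (gene pairs), other scalings and filters, a replicate block and leaving out libraries were alternatives. The fits were also run on simulated counts without missing constructs and with less spread than these data, most so for gene pairs. This checks the code and does not show how the fits perform on these libraries.

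Replicate numbers were checked as pairs. Over 1849 guides, deviations of same-numbered libraries correlated at -0.579 for irradiated and day 14. They correlated at 0.107 for irradiated and day 0 and at -0.045 for day 14 and day 0. Same-numbered libraries were therefore not treated as pairs. The -0.579 means that irradiated replicate 2 and day 14 replicate 1, the incomplete libraries, tended to deviate in the same direction. Of all 863546 constructs, 343764 were missing from both. The main fits had no block for this, so their p-values take these libraries as separate.

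Every gene of the set is described. Named guides are those past the test or the highest or lowest of their gene; others, such as Rmi1 guides 2 and 3, were chosen after their values were seen. Gene pairs are those named by role or with an unadjusted p below 0.05. Other repair genes are named only among the 4 with the smallest unadjusted p per comparison. The members and lists were chosen with earlier results of these data known.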

Additional observations from a re-analysis of the deposited data

How the results depend on the processing

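Counts past the threshold are given for irradiated against day 0, irradiated against day 14 and day 14 against day 0, in that order, where 3 stand together. Over all guides, where edgeR called 0, DESeq2 called 27, 25 and 24, the replicate block 1, 1 and 0, scaling by non-targeting pairs 2, 1 and 0, and each position fitted alone (chosen after seeing the data) 1, 10 and 2. Without the filter 1 guide, and without the 5 largest partners of each guide 2 guides, were called in irradiated against day 14 cells. Over all genes DESeq2 called 2, 1 and 2, and position 1 guides alone 2, 10 and 2. Leaving out 1 library at a time gave 0 to 311, 0 to 11 and 0 to 313 guides and 0 to 163, 0 to 1 and 0 to 168 genes, and within the set 0 to 5 guides and 0 to 3 genes in both comparisons with day 0. The highest counts against day 0 came without day 0 replicate 2. A fit without a library leaves 1 in that group, so its p-values do not measure the spread within that group. DESeq2 called 1 guide of the set, in irradiated against day 14 cells. Of single knockouts, 0 to 21 were called at day 14 against day 0, the highest without day 14 replicate 2, and without both incomplete libraries 3 against day 0 in irradiated cells and 1 at day 14.

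Over all gene pairs limma-trend called 1, 1 and 0, the replicate block 1, 1 and 0, and leaving out 1 library 0 to 1 in both irradiated comparisons. Without both incomplete libraries 1261, 215 and 167 gene pairs were called, 0 of them inside the set. Pairing day 14 replicate 1 with irradiated replicate 2 (chosen after seeing the data) called 2, 2 and 0 gene pairs. Same-numbered libraries share only a number, and the replicate block called 0 guides, genes or gene pairs of the set. Of 4050 recomputed values of the set, 412 differed in sign from the reported one. In 2 of these either value had an unadjusted p below 0.05, both without both incomplete libraries: Ankle1 with Rmi1 at day 14 against day 0 was -0.71 in place of 0.14, and Blm with Rmi2 in irradiated against day 14 cells was 0.80 in place of -0.26. The cause of these changes was not tested. Of the incomplete libraries, irradiated replicate 2 had 86587125 reads and day 14 replicate 1 had 61962789, beside 61185707 in day 14 replicate 2. Whether read depth bears on the missing constructs was not tested.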
